A study of Mus musculus with 9 samples.

Results

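The genes described here belong to cholesterol synthesis and its control, and were chosen by symbol, with earlier results of these data known: Hmgcs1, Idi1, Fdft1, Sqle, Lss, Dhcr7, Insig1 and Srebf2. Of these 8 symbols, 7 were measured among the 23955 gene rows of the count table, and Hmgcs1, the HMG-CoA synthase of the pathway, has no level here and was not analysed beyond its upstream sequence. All 7 passed the filter on low counts in every comparison. None of the 8 is a receptor or transporter, so uptake is described below from a separate list of 9 genes.

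RNA-seq was performed on 9 organoid samples, which are gut epithelium propagated in culture. They came from APCmin/+ mice, animals that carry a mutated copy of the tumor suppressor Apc and develop intestinal adenomas. MIN organoids (n = 3) came from gut epithelium outside the tumors, Adenoma organoids (n = 3) from the adenomatous polyps, and Sulindac organoids (n = 3) from adenomatous polyps, treated with sulindac, a nonsteroidal anti-inflammatory drug. All groups share the Apc mutation and the culture medium with Noggin, EGF, bFGF, R-spondin1 and B27. The mice's age, the sulindac dose, its duration and any vehicle given to the other organoids are not given in the sources used here. The samples are called biological replicates, but nothing says which came from the same animal, so p-values measure the spread between these samples.

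Cholesterol is built from acetyl-CoA through mevalonate, the isoprenoids, squalene and lanosterol. When sterol in the endoplasmic reticulum is low, SCAP escorts the SREBP-2 precursor, encoded by Srebf2, to the Golgi, where it is cut into an active transcription factor that raises the genes of synthesis. INSIG proteins hold SCAP back when sterol is plentiful, and Insig1 is itself a target of this factor. In the gut, absorptive enterocytes also take cholesterol from the lumen and return part of it through transporters.

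The upstream sequences of 4 members are shown because SREBP-2 acts through short elements close to the start of its targets. They are RefSeq sequence of build GRCm38.p6, all on the plus strand, read up to the annotated gene start and covering up to 250 bases: Idi1 at chr13:8885356-8885605, Lss at chr10:76531355-76531564, Insig1 at chr5:28071162-28071411 and Srebf2 at chr15:82147019-82147268. Capitals mark matches, on either strand, to TCACNCCA (the core of a sterol regulatory element), CACGTG (an E-box) or CCAAT (the letters of an NF-Y site, written ATTGG where it lies on the other strand).
Idi1: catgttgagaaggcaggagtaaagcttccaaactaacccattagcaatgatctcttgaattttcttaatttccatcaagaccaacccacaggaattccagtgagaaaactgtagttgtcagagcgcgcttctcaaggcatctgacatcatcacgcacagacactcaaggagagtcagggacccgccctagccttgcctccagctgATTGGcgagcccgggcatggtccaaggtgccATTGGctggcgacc
Lss: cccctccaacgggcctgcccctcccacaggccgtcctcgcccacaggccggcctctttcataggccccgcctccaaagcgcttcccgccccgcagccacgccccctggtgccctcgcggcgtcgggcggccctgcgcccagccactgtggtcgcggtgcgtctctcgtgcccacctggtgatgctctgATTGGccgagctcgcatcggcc
Insig1: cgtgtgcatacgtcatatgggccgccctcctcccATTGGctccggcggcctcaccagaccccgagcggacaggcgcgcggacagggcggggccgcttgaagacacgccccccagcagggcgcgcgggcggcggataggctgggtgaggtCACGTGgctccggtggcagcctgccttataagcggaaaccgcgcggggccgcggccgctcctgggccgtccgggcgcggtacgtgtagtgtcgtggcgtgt
Srebf2: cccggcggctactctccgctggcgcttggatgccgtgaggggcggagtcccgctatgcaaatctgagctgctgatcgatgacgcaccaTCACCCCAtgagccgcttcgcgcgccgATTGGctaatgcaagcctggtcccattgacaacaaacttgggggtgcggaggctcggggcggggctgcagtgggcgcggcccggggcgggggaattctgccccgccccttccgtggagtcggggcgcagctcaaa
The motifs were chosen after the sequences were seen, and a match is a description of letters, not a bound site. CCAAT was present in all 4 sequences, with 2 matches in Idi1, TCACNCCA in Srebf2 alone and CACGTG in Insig1 alone. Among all 32851 RefSeq windows of 250 bases before to 50 after a start, 37.4% held CCAAT, 4.36% held TCACNCCA and 7.15% held CACGTG. A further motif, GGGCGG, the letters of an Sp1 site, was searched as well and occurred in all 4 sequences and in 35.7% of the windows, and no matches in the 4 overlapped. Dhcr7 has 3 such windows, of which 1 held CCAAT, 1 held CACGTG and 0 held TCACNCCA, and is not printed. Hmgcs1 has 1 such window, which held 1 match to TCACNCCA and 4 to CCAAT, and is not printed because the gene has no level here. Sqle and Fdft1 were not examined for motifs.

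Total counts ranged from 30881206 to 48412477 per sample, so that the floor of 3 counts lay between 0.0647 and 0.0989 CPM, the count scaled to a common library size after TMM normalization. Each measured member had at least 3383 counts in each sample, and the spread between replicates, not counting error, set the precision. Epithelial markers were Epcam, Cdh1, Vil1, Krt8, Krt18, Krt19 and Cldn7. They summed to 5791 to 8334 CPM in MIN, 3436 to 4542 in Adenoma and 4797 to 5643 in Sulindac. In Adenoma against MIN, 5 of these 7 were called lower (71.4%, against 20.1% of all genes tested) and 0 higher. Krt18 had a log2 fold change of 0.74 and did not pass. The leukocyte marker Ptprc had at most 8 counts in any sample and the mesenchymal collagens Col1a2 and Col3a1 had 0 in all, while Col1a1 had 32 to 54 counts in Adenoma, 10 to 22 in MIN and 11 to 17 in Sulindac. Pdgfra, another mesenchymal marker, had 25 to 39 counts in Adenoma against 5 to 8 in MIN and was called higher (log2 fold change 2.49, adjusted p = 0.000492). Pdgfrb went the other way, with 0 to 1 counts in Adenoma against 127 to 176 in MIN, and was called lower. Of the 4 mesenchymal markers tested, 2 were higher (50%, against 18.5% of all genes tested) and 1 lower (25%, against 20.1%). The summed level of 7 mesenchymal markers was 107 to 263 CPM in Adenoma against 7.08 to 8.72 in MIN and 3.62 to 9.35 in Sulindac, nearly all of it Vim (105 to 261 CPM in Adenoma). The summed level of 6 leukocyte markers was 8.34 to 16.6 CPM in Adenoma, 4.55 to 6.30 in MIN and 2.97 to 4.19 in Sulindac, and that of 3 endothelial markers was at most 0.568 CPM. In Adenoma most of the leukocyte sum was Cd68 (7.95 to 16.2 CPM), which was called higher than in MIN. Itgam, the other leukocyte marker tested, was called lower, with a mean of 0.226 CPM in Adenoma against 3.74 in MIN. The summed level of 8 enterocyte markers was 2844 to 4750 CPM in MIN, 48.8 to 81.6 in Adenoma and 11.6 to 28.9 in Sulindac. Stem cell markers summed to 1264 to 2514, 983 to 1458 and 707 to 979 CPM and proliferation markers to 1809 to 2284, 1321 to 1741 and 1057 to 1279 CPM in MIN, Adenoma and Sulindac. In Adenoma against MIN, 2 of the 5 stem cell markers were called higher (Ascl2 and Axin2) and 2 lower (Lgr5 and Olfm4). These are 40% each, against 18.5% and 20.1% of all genes tested. The mean of Olfm4 was 1224 CPM in MIN and 0.124 CPM in Adenoma. Marker levels thus moved with the groups, their part in the results was not tested, and in bulk samples fewer cells of a type and less RNA per cell cannot be told apart.

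The first question was whether these genes differ between adenoma and the adjacent epithelium. Idi1, Sqle and Insig1 were lower in Adenoma than in MIN organoids, by 1.71-fold, 1.42-fold and 2.02-fold, and no measured member was higher. Calls were made at a false discovery rate (FDR) of 1% over 13744 genes with edgeR's quasi-likelihood test. Of 7 members, 3 were lower (42.9%), while 20.1% of all genes tested were lower and 18.5% were higher. The median log2 fold change of the 7 was -0.61, against -0.01 over all genes.

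Idi1, the isomerase that makes the isoprenoid building block for farnesyl diphosphate, measured 481, 516 and 417 CPM in MIN 1 to 3 and 308, 221 and 296 CPM in Adenoma 1 to 3. All Adenoma samples lay below all MIN samples. The log2 fold change was -0.78 (SE 0.15, adjusted p = 0.00268), and without MIN 2 the adjusted p was 0.0130. Up to 30.5% of the 50-base stretches of its longest coding transcript also occur in other transcripts, mostly of Gm13502, so its counts may include reads of a near copy.

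Sqle, squalene epoxidase, an oxygen-requiring and rate-limiting step, measured 284, 301 and 266 CPM in MIN and 205, 175 and 219 CPM in Adenoma. The groups did not overlap, and the log2 fold change was -0.50 (SE 0.12, adjusted p = 0.00635). This call was lost when MIN 1, MIN 2, Adenoma 1 or Adenoma 2 was left out (adjusted p = 0.0188 to 0.0313), with library size alone (adjusted p = 0.0201), and in the paired fit that adds a replicate block (adjusted p = 0.0148). Under that block the members lower were again 3, namely Idi1, Insig1 and Lss.

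Insig1, the sterol-sensitive retention protein, measured 410, 385 and 349 CPM in MIN and 172, 152 and 242 CPM in Adenoma. Its drop was the largest among the 7 members, with no overlap and a log2 fold change of -1.02 (SE 0.18, adjusted p = 0.00128). It was called in each of the 14 alternatives run, with a log2 fold change between -1.23 and -0.88.

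Lss, which closes squalene epoxide into lanosterol, measured 215, 194 and 145 CPM in MIN and 154, 94.7 and 106 CPM in Adenoma. The groups overlapped through MIN 3 and Adenoma 1. The log2 fold change of -0.64 (SE 0.21, adjusted p = 0.0283) did not pass, while the fit with the replicate block (adjusted p = 0.00871) and the fit without Adenoma 1 (adjusted p = 0.00424) did.

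Dhcr7, the reductase of the last step, measured 187, 180 and 113 CPM in MIN and 116, 99.2 and 98.5 CPM in Adenoma. MIN 3 was close to the Adenoma samples, and the log2 fold change of -0.61 (SE 0.18, adjusted p = 0.0213) did not pass. Without MIN 3 the log2 fold change was -0.81 (adjusted p = 0.000949).

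Fdft1, squalene synthase, the first step committed to sterols, measured 215, 228 and 198 CPM in MIN and 200, 155 and 206 CPM in Adenoma. These ranges overlapped, and the log2 fold change was -0.19 (SE 0.13, adjusted p = 0.251). Of its longest coding transcript, 30.7% of 50-base stretches occur in transcripts of other genes, 19.9% in those of Ctsb, a sharing that could add reads of that gene.

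Srebf2 measured 370, 384 and 411 CPM in MIN and 381, 386 and 366 CPM in Adenoma, and its level varied 1.13-fold over all 9 samples. The log2 fold change was -0.04 (SE 0.10, adjusted p = 0.775), and its sign turned to 0.09 with library size alone, a scaling that moved the median of all genes from -0.01 to 0.12. Of the 7 members, 3 lay below without overlap, against 31.8% of all genes tested, and 0 lay above, against 30.7%.

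**Figure D1:**
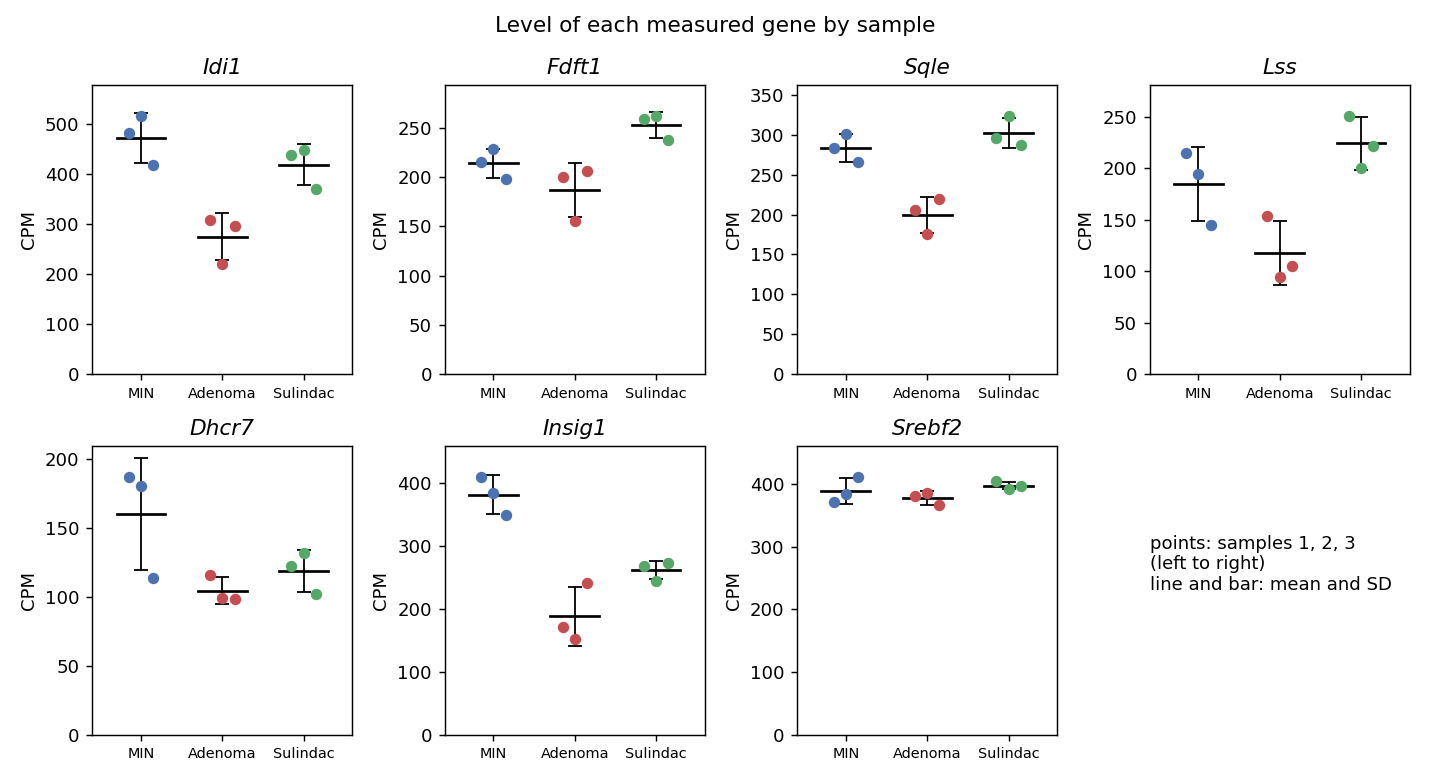
Level of each measured member in CPM (vertical axis, from 0) in MIN, Adenoma and Sulindac organoids, with a point per sample and the mean ± SD (n = 3) in black. Idi1, Sqle and Insig1 lie lower in all 3 Adenoma samples than in all 3 MIN samples, and Srebf2 stays between 366 and 411 CPM.

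The second question was whether sulindac changed these genes in adenoma organoids. Sqle rose 1.53-fold and Lss 1.92-fold, and no measured member fell. Of 7 members, 2 were higher (28.6%), where 8.32% of 12962 genes tested were higher and 9.10% lower. The median log2 fold change of the 7 was 0.49, against -0.01 over all genes.

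In Sulindac 1 to 3, Sqle measured 295, 324 and 288 CPM, above the Adenoma values of 175 to 219 CPM. Its log2 fold change was 0.61 (SE 0.11, adjusted p = 0.00337). Lss measured 251, 200 and 222 CPM, above the Adenoma range of 94.7 to 154 CPM, with a log2 fold change of 0.94 (SE 0.19, adjusted p = 0.00624). Both calls were lost when Adenoma 2, Sulindac 1, Sulindac 2 or Sulindac 3 was left out (adjusted p of Sqle 0.0119 to 0.0156, of Lss 0.0140 to 0.0259), and that of Lss also without Adenoma 3 (adjusted p = 0.0238) and with library size alone (0.0159), so that 0 members were called in 4 of those fits. At an FDR of 5%, 5 of the 7 members were higher, and DESeq2 called 4. These settings called more genes in general, with 2034 and 1778 of all genes higher, against 1078 in the main fit.

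Idi1 measured 438, 447 and 371 CPM after sulindac, above its Adenoma range of 221 to 308 CPM, with a log2 fold change of 0.62 (SE 0.14, adjusted p = 0.0113). Fdft1 measured 258, 262 and 238 CPM against 155 to 206 CPM, with a log2 fold change of 0.45 (SE 0.12, adjusted p = 0.0210). Insig1 measured 269, 245 and 272 CPM against 152 to 242 CPM, with a log2 fold change of 0.49 (SE 0.16, adjusted p = 0.0444). For these 3 genes the Sulindac samples lay above the Adenoma samples without overlap, although none passed the FDR of 1%. Without Adenoma 3, its highest Adenoma sample, Insig1 did pass, at a log2 fold change of 0.70 (adjusted p = 0.00177).

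Dhcr7 measured 122, 132 and 102 CPM in Sulindac and overlapped Adenoma, with a log2 fold change of 0.19 (SE 0.12, adjusted p = 0.251). Srebf2 measured 404, 391 and 396 CPM, with a log2 fold change of 0.09 (SE 0.09, adjusted p = 0.508), which became -0.08 with library size alone, where the median of all genes was -0.18. In all, 6 of the 7 members lay above Adenoma without overlap and 0 below, where 22.5% of all genes tested lay above and 26.2% below.

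**Figure D2:**
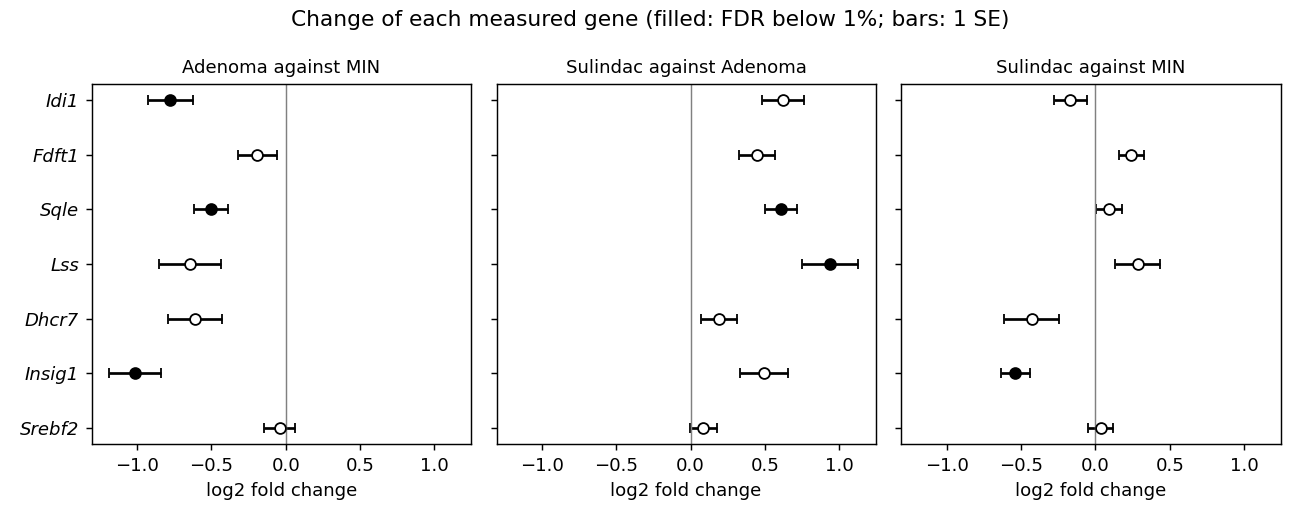
Log2 fold change of each measured member (horizontal axis, bars 1 SE) in the 3 comparisons, filled where the FDR was below 1%. In Adenoma against MIN all 7 values lie below 0 and 3 are filled; in Sulindac against Adenoma all 7 lie above 0 and 2 are filled.

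Sulindac organoids were also set against MIN, a comparison that shares its samples with the others. Insig1 was lower in Sulindac than in MIN, 1.45-fold, and was the single member called among the 7 (14.3%), where 26.8% of 13551 genes tested were lower and 23.0% higher. Its log2 fold change was -0.54 (SE 0.10, adjusted p = 0.00121), its groups of 245 to 272 and 349 to 410 CPM did not overlap, and in one fit of all 9 samples the adjusted p was 0.0116. Dhcr7 had a log2 fold change of -0.43 (SE 0.19, adjusted p = 0.0757), and of -0.62 (adjusted p = 0.000798) without MIN 3. Fdft1 lay above MIN without overlap, at a log2 fold change of 0.24 (SE 0.09, adjusted p = 0.0365) that did not pass. The log2 fold changes of Lss (0.28, adjusted p = 0.139), Sqle (0.09, adjusted p = 0.375), Idi1 (-0.17, adjusted p = 0.221) and Srebf2 (0.03, adjusted p = 0.737) did not pass either. Of all genes tested, 33.2% lay above MIN without overlap and 35.8% below.

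Per kilobase of the longest coding transcript, the order of the levels in MIN was Idi1 (156 ± 16.6 CPM per kb, SD, n = 3), Insig1 (141 ± 11.4), Sqle (103 ± 6.35), Srebf2 (76.5 ± 4.13), Fdft1 (57.8 ± 4.05), Dhcr7 (56.8 ± 14.4) and Lss (39.6 ± 7.69). Idi1 and Insig1, Fdft1 and Dhcr7, and Dhcr7 and Lss are neighbours whose levels did not differ beyond their spread. In Adenoma, Idi1 (90.8 ± 15.6), Srebf2 (74.3 ± 2.09), Sqle (72.5 ± 8.16) and Insig1 (69.8 ± 17.5) were likewise within their spread of each other. Insig1 and Fdft1 (50.5 ± 7.49) were as well.

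Among themselves, the 7 members had 21 pairwise Pearson correlations of log2(CPM + 0.5) over the 9 samples, between -0.23 and 0.93 with a median of 0.57, values that include the differences between groups. For deviations from the group means they lay between -0.70 and 0.97 with a median of 0.50, and 15 of the 21 were positive. Of 13881 other genes compared, the 5 whose pattern over the 9 samples was most like the members' mean were Ttyh2 (r = 0.979), Rdh11 (r = 0.978), Acss2 (r = 0.977), Pex16 (r = 0.977) and Tmem8 (r = 0.975). Acss2, which makes acetyl-CoA from acetate, measured 210, 210 and 169 CPM in MIN, 100, 53.9 and 71.1 in Adenoma and 192, 152 and 158 in Sulindac. Of the enzymes of cholesterol synthesis outside the members, Acat2 and Msmo1 ranked best by the same measure, at 151 and 390. Cyp51 ranked last among them, at 4032, and the others ranked between Sc5d at 495 and Mvk at 3345.

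The other enzymes of the pathway were described from a list of 19, of which 18 were measured and which holds 5 of the measured members. In Adenoma against MIN, 6 of 18 were lower and 0 higher, with a median log2 fold change of -0.46. These are 33.3% and 0%, where 20.1% of all genes tested were lower and 18.5% higher. The count was between 2 and 9 with a sample left out: 3 without MIN 1, 2 without MIN 2, 9 without MIN 3, and 4 without Adenoma 1 or Adenoma 2. The largest changes among those called were in Hsd17b7 (log2 fold change -1.04, SE 0.16), a reductase of sterol demethylation, Pmvk (-0.84, SE 0.17), phosphomevalonate kinase, Idi1, and Ebp (-0.78, SE 0.18), the sterol isomerase, whose call was lost with the replicate block (adjusted p = 0.0139) and with library size alone (0.0188). Lbr and Sqle made up the rest of the 6. For 7 of the 18 enzymes all Adenoma samples lay below all MIN samples, and for 0 above. Of all genes tested, 31.8% lay below without overlap and 30.7% above. MIN 3 lay within or below the Adenoma range for Acat2, Mvk, Mvd, Fdps, Nsdhl and Tm7sf2, among others. The call of Ebp was lost with any sample but MIN 3 left out (adjusted p = 0.0138 to 0.0288), and that of Pmvk without MIN 1, MIN 2 or Adenoma 1 (0.0101 to 0.0114).

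In Sulindac against Adenoma, 3 of the 18 enzymes were higher and 0 lower, with a median log2 fold change of 0.39. The share of 16.7% stands against 8.32% of all genes tested. Besides Lss and Sqle this was Sc5d (log2 fold change 0.87, SE 0.10, adjusted p = 0.000577), the sterol desaturase. The count was 1 without Adenoma 2, Sulindac 1, Sulindac 2 or Sulindac 3, and 5 without Adenoma 1. Sc5d measured 151, 156 and 155 CPM in Sulindac and 87.7, 74.8 and 92.1 in Adenoma. In Sulindac against MIN, 2 were higher (Sc5d and Cyp51) and 3 lower (Lbr, Hsd17b7 and Pmvk), 11.1% and 16.7% against 23.0% and 26.8% of all genes tested, with a median log2 fold change of -0.05. The calls of Cyp51 (adjusted p = 0.0117 to 0.0290 with any sample left out), Sc5d (0.0138 to 0.0190 without MIN 2 or any Sulindac sample) and, without Sulindac 3, Pmvk were not kept.

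**Figure D3:**
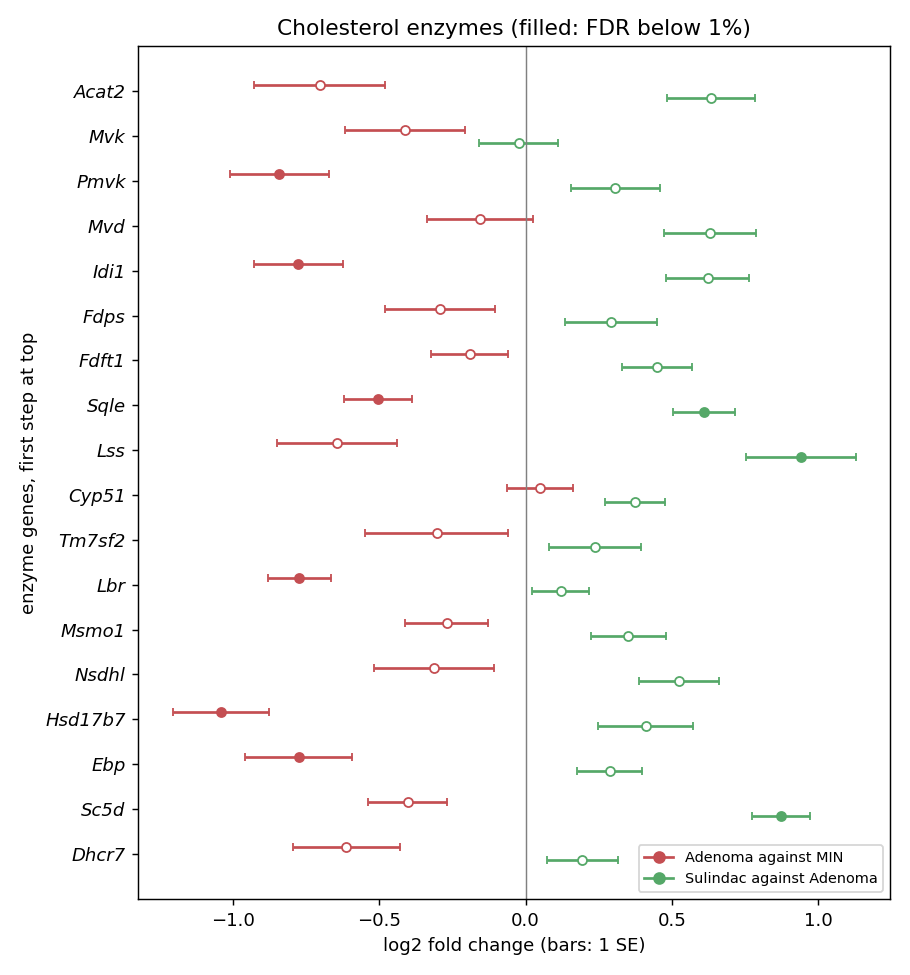
Log2 fold change (horizontal axis, bars 1 SE) of the 18 measured cholesterol enzymes in pathway order, for Adenoma against MIN (red) and Sulindac against Adenoma (green), filled where the FDR was below 1%. The red values lie below 0 for 17 of the 18 enzymes and the green ones above 0 for 17 of the 18; the 2 comparisons share the Adenoma samples.

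Of the 7 genes that control SREBP, Insig1 alone was lower in Adenoma (14.3%, below the 20.1% of all genes tested) and 0 were higher. After sulindac, Insig2 alone was higher than in Adenoma (log2 fold change 0.51, SE 0.10, adjusted p = 0.00646), 14.3% of the list against 8.32% of all genes tested. Insig2, the second retention protein, measured 60.4, 52.6 and 52.8 CPM in Sulindac and 38.7, 38.0 and 41.1 in Adenoma, and its call was lost with any sample but Adenoma 3 left out (adjusted p = 0.0132 to 0.0305), with library size alone (0.0308) and with the replicate block (0.0146). Against MIN, Insig2 was higher (log2 fold change 0.70) and Mbtps1 (-0.55), Insig1 and Mbtps2 (-0.30) were lower in Sulindac; the Mbtps genes encode the proteases that cut SREBP. These are 14.3% higher and 42.9% lower, where 23.0% and 26.8% of all genes tested were. The call of Mbtps1 was lost without MIN 2, Sulindac 1 or Sulindac 3 (adjusted p = 0.0110 to 0.0144) and that of Mbtps2 with any sample left out (0.0138 to 0.0449), with no low-count filter (0.0137), in one fit of all 9 samples (0.0866) and with the replicate block (0.0133). Srebf1 and Scap passed in no comparison.

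For uptake and transport, 3 of 9 genes were lower (33.3%, against 20.1% of all genes tested) and 1 higher (11.1%, against 18.5%) in Adenoma than in MIN. Npc1l1, the carrier of cholesterol from the gut lumen and an enterocyte gene, fell from 179, 194 and 257 CPM to 0.842, 0.448 and 0.609 CPM (log2 fold change -8.36, SE 0.26), alongside the enterocyte markers given above. Lrp1, a lipoprotein receptor (-1.79, SE 0.19), and Stard4, a sterol carrier (-1.06, SE 0.15), were lower, and Scarb1, the HDL receptor (1.27, SE 0.11), was higher.

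After sulindac, 3 of the 9 uptake and transport genes were higher than in Adenoma (33.3%, against 8.32% of all genes tested) and 1 was lower (11.1%, against 9.10%). Lipa, the lysosomal acid lipase, measured 81.6, 77.8 and 78.7 CPM against 32.8, 30.0 and 27.3 (log2 fold change 1.41, SE 0.11, adjusted p = 0.000128). Vldlr (0.95, SE 0.13) and Npc1, the lysosomal cholesterol exporter (0.79, SE 0.13), were higher, and Lrp1 was lower (-1.18, SE 0.26). The call of Npc1 was lost without Adenoma 2, Sulindac 1 or Sulindac 3 (adjusted p = 0.0120 to 0.0130) and that of Lrp1 without Adenoma 1, Adenoma 2, Sulindac 2 or Sulindac 3 (0.0156 to 0.0414). Against MIN, 4 of the 9 were higher (44.4%, against 23.0%) and 3 lower (33.3%, against 26.8%) in Sulindac, and those higher were 2 without MIN 1 or Sulindac 3. The replicate block added Vldlr to those higher than in MIN (log2 fold change 0.72, adjusted p = 0.000514).

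**Figure D4:**
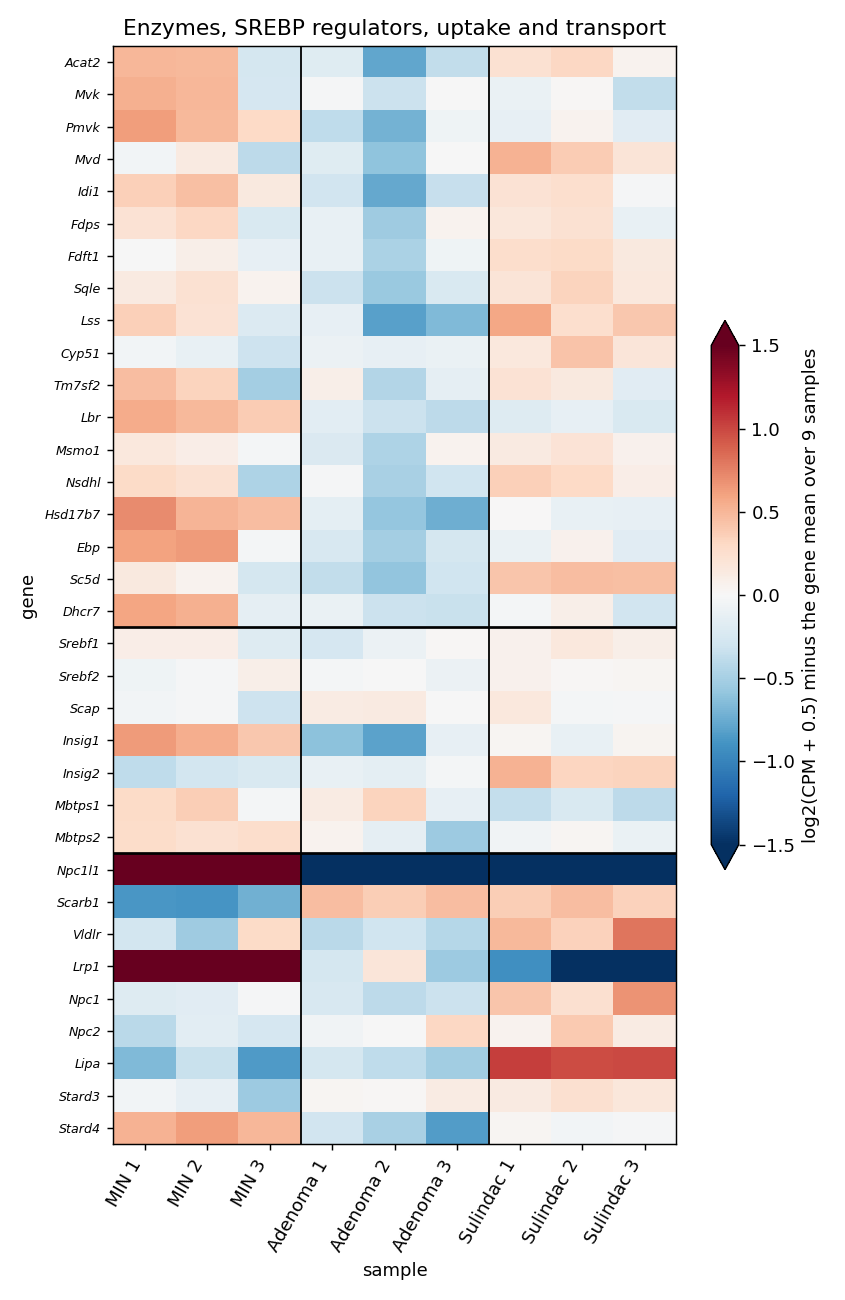
Log2(CPM + 0.5) minus the mean of the gene over the 9 samples (color, saturated at 1.5 either way) for cholesterol enzymes, SREBP regulators and uptake and transport genes (rows, set apart by black lines) in each sample (columns). Most enzymes have their lowest group mean in Adenoma, but for several of them MIN 3 lies within or below the Adenoma range. Npc1l1 is high in MIN alone and Lipa is high in Sulindac.

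Of 9 genes of efflux, esterification and their LXR regulators, 5 were lower (55.6%, against 20.1% of all genes tested) and 1 higher (11.1%, against 18.5%) in Adenoma than in MIN; without MIN 1, 2 were higher. Abca1, the exporter to apolipoprotein A-I, had 447, 214 and 82 counts in MIN, 2, 5 and 0 in Adenoma and 0, 2 and 0 in Sulindac, so no fold change is given. Abcg5 and Abcg8, the transporters that return sterol to the gut lumen, were lower (log2 fold change -4.15 and -3.87), and Abcg1 was higher (4.06) from a MIN level of 0.194 to 0.268 CPM. After sulindac, Soat1, which esterifies cholesterol, was higher than in Adenoma (0.89, SE 0.15), alone among the 8 tested (12.5%, against 8.32%), a call lost without Adenoma 2, Sulindac 2 or Sulindac 3 (adjusted p = 0.0120 to 0.0174) and with library size alone (0.0102). With the replicate block Abcg1 was also called, lower than in Adenoma (log2 fold change -1.08, adjusted p = 0.00856). Against MIN, 3 were higher (33.3%, against 23.0%) and 5 lower (55.6%, against 26.8%) in Sulindac. Those higher were 2 without MIN 2, MIN 3 or any one Sulindac sample, and with library size alone. With at least 10 counts in every sample, 2 were higher and 4 lower.

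Side branches and fatty acid synthesis, which SREBP-1 serves, were counted in the same way. Of 9 isoprenoid branch genes, 3 were lower in Adenoma than in MIN (Pdss1, Pdss2 and Nus1) and 0 higher, which is 33.3% lower against 20.1% of all genes tested. None passed with edgeR after sulindac. At an FDR of 5%, 2 were higher and 1 lower, and DESeq2 called 1 higher. All genes higher numbered 2034 and 1778 at these settings, against 1078 in the main fit. In Sulindac 2 were higher than in MIN (22.2%, against 23.0%) and 3 lower (33.3%, against 26.8%), and those higher were 1 without MIN 1, Sulindac 1 or Sulindac 3. Nus1 was lost in Adenoma against MIN with the replicate block (adjusted p = 0.0144), with library size alone (0.0506), with no low-count filter (0.0116), with at least 10 counts in every sample (0.0102) and with any sample left out (0.0103 to 0.0388). Of 11 fatty acid genes, 3 were lower in Adenoma (Elovl6, Acss2 and Acaca; 27.3%, against 20.1%) and 1 higher (Me1; 9.09%, against 18.5%). Those lower were 5 without MIN 3 and 4 with the replicate block. After sulindac 6 of the 11 were higher than in Adenoma (54.5%, against 8.32% of all genes tested) and 0 lower, a count that fell to 1 without Sulindac 1 or Sulindac 3 and to 2 without Sulindac 2. Among the 6 were Me1 (log2 fold change 1.21, SE 0.12), Acss2 (1.17, SE 0.22), Scd1 (0.94, SE 0.18) and Scd2 (0.89, SE 0.14). The calls of Acss2 (adjusted p = 0.0127 to 0.0201), Scd1 (0.0116 to 0.0215) and Scd2 (0.0122 to 0.0140) were lost without any one of the Sulindac samples, that of Acss2 also without Adenoma 3 and that of Scd1 without Adenoma 2 or Adenoma 3, with library size alone (0.0131) and in one fit of all 9 samples (0.0515). The call of Elovl5 (log2 fold change 0.51) was lost with any sample but Adenoma 3 left out (0.0107 to 0.0199), with library size alone (0.0200) and with the replicate block (0.0112). Scd2, a desaturase, measured 5881, 6536 and 5790 CPM in Sulindac and 3772, 3211 and 2942 in Adenoma. Against MIN, 3 of these 11 were higher (27.3%, against 23.0%) and 2 lower (18.2%, against 26.8%) in Sulindac, and those lower were 1 without MIN 2, Sulindac 2 or Sulindac 3 and 4 without MIN 3.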

How the data were processed

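RNA-seq of 9 mouse organoid samples was analysed. The authors deposited 1 table of raw counts per gene symbol, not normalized. GEO's processing notes name Bowtie2 2.2.4, RSEM and mm9; the annotation and strand setting are not given in the sources used here, so reads of overlapping antisense genes cannot be told apart. MIN 1 has 2 run columns and their sum, equal in all 23955 rows; the sum was used as 1 sample. In 27 rows the symbol is a date; these were tested and not named.

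Genes were filtered with filterByExpr, scaled by TMM and tested with edgeR 4.0.16 (glmQLFit, robust; glmQLFTest) in R 4.3.3, each fit holding only the groups compared, with Benjamini-Hochberg adjustment over all genes tested and an FDR of 1%. The SE is the absolute log2 fold change over the square root of F. CPM levels use TMM scaling of all 9 samples. The script was tested on simulated counts. Alternatives were DESeq2 1.42.0, other scalings, filters, fits and thresholds, and leaving out each sample. The members and gene lists were chosen with earlier results of these data known. All members are described. From each list, at most 4 called genes with the largest change in a comparison were named, and the 5 genes most like the members. Lbr and Cyp51, among others, were named after their values were seen. Some genes of these lists are not reported here and were left out of list counts and of the likeness ranking, but not of the fits.

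Same-numbered Adenoma and MIN samples deviated together from their group means (r = 0.126, 0.113 and 0.193 across genes), so their numbers were taken as pairs in the replicate block. This pairing comes from the data and the titles, and no source states it. The main calls and counts come from fits without the block, and blocked values are given for named genes whose call they change.

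Promoter sequences are RefSeq, GRCm38.p6, and transcript lengths GENCODE M21. The build of the counts differs, and no coordinates of it are given.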

Additional observations from a re-analysis of the deposited data

How the results depend on the processing

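Each measured member had at least 3383 counts in every sample; depth limits Abca1, with at most 5 counts in Adenoma. In Adenoma against MIN, the members lower numbered 3, but 2 with library size alone, and 5 with DESeq2 or at an FDR of 5%. The cholesterol enzymes lower numbered 6, but 4 with library size alone, where Sqle and Ebp were lost, 9 with DESeq2 and 10 at an FDR of 5%. In Sulindac against Adenoma, the members higher numbered 2, but 1 with library size alone or with the replicate block, 4 with DESeq2 and 5 at an FDR of 5%. The enzymes higher numbered 3, but 7 with no low-count filter, and 9 with DESeq2 or at an FDR of 5%. All genes higher numbered 1078, but 603 with library size alone, 1778 with DESeq2 and 2034 at an FDR of 5%, and all genes lower 1179, but 1983 with library size alone and 2374 at an FDR of 5%. The share of calls that were higher thus went from 47.8% to 23.3% with library size alone, and in Adenoma against MIN from 48.0% to 57.7%. In Sulindac against MIN, the members lower numbered 1, but 0 in one fit of all 9 samples, where Insig1 had an adjusted p of 0.0116, and 2 with the replicate block. The members higher numbered 0, and 1 at an FDR of 5%. The enzymes higher numbered 2, but 1 with RLE size factors or at least 10 counts in every sample, 0 with library size alone and 4 at an FDR of 5%. The cause of these shifts was not tested, other than the threshold itself.

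With a sample left out, Adenoma against MIN gave 1885 to 2441 genes higher, 2238 to 2762 lower, 1 to 4 members lower and 2 to 9 enzymes lower. Sulindac against Adenoma gave 423 to 1403 genes higher, 386 to 1488 lower, 0 to 2 members higher and 1 to 5 enzymes higher. Sulindac against MIN gave 2430 to 3405 genes higher, 2912 to 3909 lower, 1 to 2 members lower, 0 to 1 enzymes higher and 2 to 6 enzymes lower.

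Same-numbered samples correlated at 0.258, 0.213 and -0.0775 in Sulindac against Adenoma and at -0.0288, 0.406 and 0.260 in Sulindac against MIN. Being of mixed sign, these values cannot decide whether the numbers pair the samples in these comparisons. There the replicate block moved the adjusted p of Sqle in Sulindac against Adenoma to 0.0101 and of Dhcr7 in Sulindac against MIN to 0.00988, and changed no other call of a member in these comparisons.

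Signs turned as follows, for log2 fold changes that did not pass; a range is over samples left out in turn. In Adenoma against MIN these were Srebf2 (0.0946 with library size alone, -0.0847 to 0.00716), Mbtps1 (0.0442 with library size alone, -0.208 to 0.0192), Vldlr (-0.417 to 0.0311), Scd2 (-0.0540 to 0.302) and Cyp51 (-0.0224 to 0.0937). In Sulindac against Adenoma, library size alone turned Srebf2 (-0.0807), Abcg8 (-0.175), Elovl6 (-0.133), Lbr (-0.0485), Mbtps2 (-0.0126) and Ggps1 (-0.0615). There Scarb1 turned with no low-count filter (0.00197) and Abcg8 with at least 10 counts in every sample (-0.00828) and with the replicate block (-0.0546). The ranges were -0.0457 to 0.00480 for Scarb1, -0.582 to 0.349 for Abcg8, -0.0707 to 0.889 for Abcg5, -0.129 to 0.280 for Elovl6 and -0.00242 to 0.306 for Mbtps2. In Sulindac against MIN, the ranges were -0.00139 to 0.0803 for Srebf2, -0.0419 to 0.0140 for Pex16, -0.136 to 0.642 for Scd1 and -0.102 to 0.137 for Ttyh2.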
